A study of Arabidopsis thaliana with 6 samples.

Results

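The genes described here encode the core histones H2A, H2B and H4 and the linker histone H1 of Arabidopsis thaliana. They were chosen by locus identifier from a fixed list of 35 genes: 13 H2A genes (HTA1 to HTA13), 11 H2B genes (HTB1 to HTB11), 8 H4 genes and 3 H1 genes. Of these, 34 were among the 23640 features of the count table, and HTA4 was analysed here only by its gene structure and sequence. RNA came from 14-day-old seedlings of the Col ecotype grown in vitro. The mutant group was 3 libraries of atrx-1, labelled a mutant and named for the chromatin remodeler gene ATRX, and the control group was 3 libraries of wild-type Col plants. The molecule was total RNA depleted of ribosomal RNA. No label states how many plants went into a library, whether replicates were grown separately, or where atrx-1 lies in the gene, so p-values measure the spread between these libraries, which may be technical.

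H2A, H2B, H3 and H4 form the protein core around which nuclear DNA is wrapped, and H1 binds the linker DNA between these cores. Most copies are made when DNA is replicated, while variants such as H2A.Z are exchanged at other times. In plants H2A.X is the form phosphorylated next to DNA breaks, H2A.W marks heterochromatin, and H2A.Z, deposited by the SWR1 remodeler, sits near the starts of genes and over repressed, responsive genes. ATRX belongs to the SNF2 remodelers and takes part in depositing the H3 variant H3.3, so the comparison of mutant and wild type asks how RNA levels differ when ATRX is disrupted.

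The families differed in gene structure and in the sequence upstream of their transcripts. In the RefSeq annotation of TAIR10.1 all 11 H2B genes had 1 exon, all 13 H2A genes had several, and 5 of the 8 H4 genes had 1 exon. The hexamer ACGTCA, a motif known from plant histone promoters, occurred on either strand in the 250 bases before the transcript start of 8 of 11 H2B genes. It occurred there in 0 of 13 H2A, 0 of 8 H4 and 0 of 3 H1 genes, and in 7.75% of 27443 protein-coding genes. The octamer CGCGGATC, also known from such promoters, was found in 3 of 13 H2A, 2 of 8 H4, 1 of 3 H1 and 0 of 11 H2B genes, against 0.124% of all promoters. The motif TTTCCCGC, a letter pattern known from E2F binding sites, was in 0 of the 35 windows and in 0.623% of all promoters. The windows below are shown because they hold the motifs and belong to genes on which the results turn. HTB11, HTB9 and HTB5 had lower levels in every mutant library than in any wild-type library. After the correction for gene length given below, the groups of HTB9 and HTB5 overlapped. HTB3 has the same hexamer without such a difference, as do HTB1 and HTB2, whose windows are not shown. HTA10 and the H4 gene AT5G59690 carry the octamer. A link between motif and level was not tested. Letters are read 5′ to 3′ on the gene's strand from the TAIR10.1 genome, capitals mark ACGTCA or CGCGGATC on either strand, and no marked motif overlaps another.
HTB11 (chr3:16914132-16914381, minus strand): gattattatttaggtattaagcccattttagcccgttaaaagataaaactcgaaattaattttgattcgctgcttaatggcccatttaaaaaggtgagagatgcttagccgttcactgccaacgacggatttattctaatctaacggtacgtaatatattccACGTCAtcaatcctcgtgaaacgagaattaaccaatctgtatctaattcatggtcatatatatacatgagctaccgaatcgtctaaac
HTB9 (chr3:16898014-16898263, minus strand): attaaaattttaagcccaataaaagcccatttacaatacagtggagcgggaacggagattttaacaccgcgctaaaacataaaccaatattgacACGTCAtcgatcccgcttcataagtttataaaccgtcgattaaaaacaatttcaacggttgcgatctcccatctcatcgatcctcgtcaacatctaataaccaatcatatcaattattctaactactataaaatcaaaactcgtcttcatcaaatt
HTB5 (chr2:15736477-15736726, plus strand): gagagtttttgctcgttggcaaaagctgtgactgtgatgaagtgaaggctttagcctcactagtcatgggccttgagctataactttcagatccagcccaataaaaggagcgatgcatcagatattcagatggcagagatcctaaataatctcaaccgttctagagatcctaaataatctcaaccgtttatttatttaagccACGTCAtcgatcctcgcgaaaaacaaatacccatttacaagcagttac
HTB3 (chr2:12326558-12326807, plus strand): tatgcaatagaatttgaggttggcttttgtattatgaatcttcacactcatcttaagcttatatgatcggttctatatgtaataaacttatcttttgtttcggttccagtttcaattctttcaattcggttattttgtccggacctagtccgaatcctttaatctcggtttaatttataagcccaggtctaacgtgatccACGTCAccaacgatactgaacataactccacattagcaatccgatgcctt
HTA10 (chr1:18926561-18926810, plus strand): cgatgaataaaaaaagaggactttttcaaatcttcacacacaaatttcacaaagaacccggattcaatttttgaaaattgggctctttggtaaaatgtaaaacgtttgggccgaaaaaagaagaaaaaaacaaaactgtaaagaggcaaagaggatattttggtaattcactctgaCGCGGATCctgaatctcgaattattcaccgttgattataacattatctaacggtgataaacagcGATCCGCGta
H4 gene AT5G59690 (chr5:24051224-24051473, plus strand): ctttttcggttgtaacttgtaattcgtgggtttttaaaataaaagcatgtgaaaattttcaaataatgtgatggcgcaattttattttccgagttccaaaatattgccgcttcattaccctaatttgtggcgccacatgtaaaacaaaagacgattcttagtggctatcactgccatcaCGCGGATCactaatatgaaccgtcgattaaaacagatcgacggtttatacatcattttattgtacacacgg
No annotated exon lies in these 6 windows. HTB4, the most abundant H2B gene, had neither motif in its window (chr5:24126627-24126876), which does overlap 1 annotated exon. The counted gene starts at 24127128, downstream of that window. An absence of a motif thus holds only for the transcript start used.

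Library totals ran from 2887834 to 14001726 counts in the mutant and from 936243 to 3624088 counts in the wild type, of which 37.6% to 43.5% were nuclear. Histone genes took 2136 to 9857 counts per mutant library and 618 to 3268 counts per wild-type library. Levels are given in CPM, counts scaled to TMM-adjusted library totals, and 1 read was worth 0.0686 to 0.319 CPM in the mutant and 0.301 to 1.09 CPM in the wild type. Precision was therefore lowest in wild-type library 2, the shallowest. ATRX itself had 18, 3 and 6 reads in mutant libraries 1, 2 and 3 and 16, 5 and 18 reads in wild-type libraries 1, 2 and 3. That is 1.24, 0.721 and 1.91 CPM in the mutant against 4.82, 5.46 and 5.86 CPM in the wild type. The log2 fold change (mutant over wild type) was -2.09 ± 0.38 (SE), with an edgeR adjusted p of 0.0536 and an unadjusted p of 0.000125. As a check of the tissue, the leaf genes RBCS1A, RCA and CAB1 summed to 12400 to 13000 CPM in the mutant and 8700 to 14600 CPM in the wild type, and the root genes PYK10 and EXPA7 to 1040 to 1280 CPM in the mutant and 1190 to 1770 CPM in the wild type, with the root gene NRT2.1 listed at 0. The flower genes AP1, AG and AP3 had 1, 1 and 0 counts in all. The seed storage genes CRA1 and OLEO1 summed to 13.1 to 30 CPM in the mutant and 33.6 to 82.5 CPM in the wild type, without overlap, and their part in the histone values was not tested.

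Per kb of transcript, the linker histone H1.3 and the core histone HTB4 had the highest levels, as the plot of levels by library shows. H1.3, the stress-inducible linker histone, averaged 127 ± 21.1 CPM per kb in the mutant and 110 ± 12.2 CPM per kb in the wild type (SD, n = 3 each). HTB4 averaged 82.2 ± 1.86 CPM per kb in the mutant and 119 ± 3.95 CPM per kb in the wild type. H1.1, HTB11, HTB9 and HTA9 had the next highest means over all 6 libraries. H1.1 was at 71.8 ± 5.01 CPM per kb in the mutant and 86.7 ± 20.5 CPM per kb in the wild type. HTB11 (49.7 ± 4.61 CPM per kb in the mutant, 90.4 ± 16 CPM per kb in the wild type) and HTB9 (55.2 ± 5.68 CPM per kb in the mutant, 84.5 ± 18.7 CPM per kb in the wild type) lay close to each other. In the wild type the order of H1.1, HTB9 and HTB11 was within their spread, and in the mutant HTA9 had a higher mean than HTB9 and HTB11. HTA9, an H2A.Z gene, was the highest H2A gene at 60.9 ± 4.07 CPM per kb in the mutant and 59.6 ± 15.9 CPM per kb in the wild type. The highest H4 gene, AT5G59690, reached 36.5 ± 6.04 CPM per kb in the mutant and 38.5 ± 7.46 CPM per kb in the wild type. The other H4 genes lay below it, from 6.79 to 20.5 CPM per kb in the mutant and from 6.83 to 34.9 CPM per kb in the wild type.

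**Figure D1:**
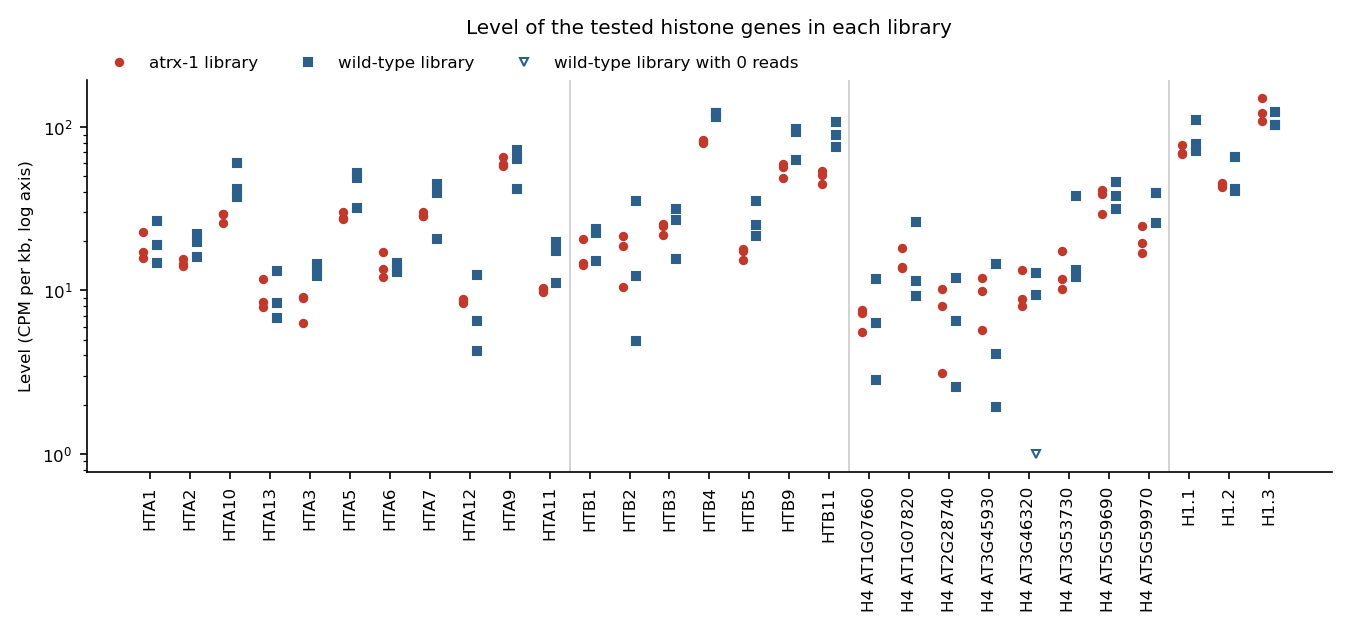
Level of the 29 tested histone genes in CPM per kb (log axis), 1 point per library, mutant libraries as red circles left of wild-type libraries as blue squares, with families separated by grey lines; the open triangle at the axis foot is a wild-type library with 0 reads. HTB4, HTB9 and HTB11 stand above the other H2B genes, and their mutant points lie below their wild-type points.

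The other 5 members in the table were too low for the test. HTA8, an H2A.Z gene, had 25, 6 and 4 reads in mutant libraries 1, 2 and 3 and 9, 2 and 6 reads in wild-type libraries 1, 2 and 3. HTB6 had 22, 6 and 3 reads in the mutant and 6, 1 and 6 in the wild type, and HTB7 had 12, 0 and 3 reads in the mutant and 4, 3 and 7 in the wild type. HTB8 gave 0, 1 and 0 reads in the mutant and 2, 0 and 0 in the wild type, and HTB10 gave 3, 0 and 0 reads in the mutant and 0, 0 and 1 in the wild type. At this depth HTB8 and HTB10 were at or under the 3 counts that a library with 0 reads allows.

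Among the 29 tested members, no gene passed an adjusted p of 0.05 in edgeR's quasi-likelihood test, where 0.116% of the 13819 tested features passed, all lower in the mutant. At an unadjusted p under 0.05, 9 members were lower and 0 higher in the mutant, against 10.9% of all features lower, 8.64% higher and 19.5% in either direction. The groups did not overlap, with every mutant library below every wild-type library, for 10 of the 29 members, or 34.5%, against 11.4% of all features. No member had every mutant library above every wild-type library, against 12.2% of all features. In all, 23 of 29 members (79.3%) had a negative log2 fold change, against 48.8% of features, and 21 had a lower mean CPM in the mutant. Their median log2 fold change was -0.22, against 0.01 over all features. In the log2 fold changes that the authors deposited, 19 of 34 members, untested ones included, were below 0. The share over all features was not counted there. DESeq2 called 1 member, HTB11, among 20 members with an adjusted p, and called 2.25% of its 7423 features lower, 0.579% higher and 2.83% in all. In bulk seedlings, fewer dividing cells and less histone RNA per cell cannot be told apart. Wild-type library 1 carried part of these numbers: without it 15 of 29 members were lower, against 49.2% of 14487 features, and the median was -0.0066, against 0.0084 over those features. At an unadjusted p under 0.05, 9 members were then lower and 3 higher, against 10.4% of features lower and 10.5% higher.

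The histone genes are short, and gene length moved with genotype in these libraries. The median member was 689 nt long, and the median tested nuclear gene 1556 nt. Among 10 equal groups of nuclear genes ordered by length, the shortest (median 643 nt) had a median log2 fold change of -0.49 and the longest (3625 nt) one of 0.43. In each library, log2 CPM was taken relative to each gene's mean over all libraries. The slope of this deviation per doubling of length was 0.138 to 0.15 in the mutant libraries and -0.22 to -0.059 in the wild-type libraries. These slopes are relative between libraries, and length and genotype cannot be told apart by library. With each library's trend on length removed, 13 members were lower, against 51.3% of features, and 16 higher, the median was 0.11 against -0.01 over all features, and 0 members and 0 features (0%) passed. At an unadjusted p under 0.05, 1 member was then lower (HTB11) and 2 were higher (HTA12 and H1.3), against 6.47% of features lower and 4.44% higher. Without overlap between the groups, 4 members were lower (HTB11, HTB4, HTA10 and HTA3) and 5 higher (HTA6, HTA9, H1.3 and the H4 genes AT3G46320 and AT5G59690), against 8.44% and 7.7% of features. Below, log2 fold changes of most named members and the counts of each group are given with and without this trend, while shares and ratios of levels per kb were not corrected for it.

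**Figure D2:**
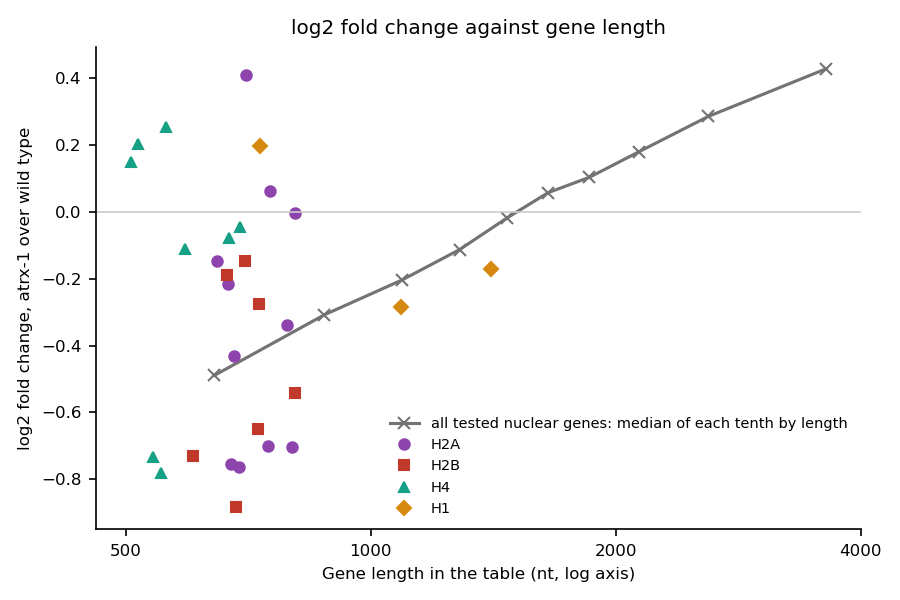
log2 fold change of mutant over wild type (y axis) against gene length in nt (x axis, log scale) for the 29 tested histone genes by family, with the median of each of 10 length groups of tested nuclear genes as a grey line. The members spread around the grey line, with HTB11 (-0.88) below it and HTA12 (0.41) above it.

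All 7 tested H2B genes were lower in the mutant, with log2 fold changes between -0.88 and -0.15 and a median of -0.54. In 4 of them every mutant library was below every wild-type library, against 11.4% of all features. After length correction, 4 were lower and 3 higher, with a median of -0.23. In 2 of them every mutant library was then below every wild-type library, against 8.44% of all features. HTB11 (AT3G46030, TAIR10 chromosome 3, 16913448 to 16914131) had 34.7, 30.5 and 36.7 CPM in mutant libraries 1, 2 and 3, against 73.1, 51.4 and 60.9 CPM in wild-type libraries 1, 2 and 3. The lowest wild-type library was still above the highest mutant library. HTB11 was 1.84-fold lower, with a log2 fold change of -0.88 ± 0.19 (SE), an edgeR unadjusted p of 0.000598 and an adjusted p of 0.0629. The DESeq2 adjusted p was 0.0155, and the edgeR adjusted p was 0.0372 without wild-type library 1. It was 0.326, 0.321 and 0.113 without mutant library 1, 2 or 3. After removal of the length trend its log2 fold change was -0.47 ± 0.18 (SE; edgeR adjusted p = 0.385), and the mutant libraries (39.2, 34.7 and 42.6 length-corrected CPM) were still below the wild-type libraries (58.7, 49.7 and 51.8 length-corrected CPM). In the authors' deposited table HTB11 had a log2 fold change of -0.69 with an adjusted p of 0.0139.

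HTB4 (AT5G59910, chromosome 5, 24127128 to 24127935) varied least within groups. It had 67.7, 66.8 and 64.7 CPM in the mutant libraries and 98.7, 92.9 and 98.1 CPM in the wild-type libraries. The 2 groups were far apart relative to their spread (66.4 ± 1.51 CPM in the mutant, 96.6 ± 3.19 CPM in the wild type, SD, n = 3 each). The log2 fold change was -0.54 ± 0.18 (SE; edgeR adjusted p = 0.124), and -0.23 ± 0.17 (SE; edgeR adjusted p = 0.677) with the length trend removed. The authors' deposited table gave -0.51 with an adjusted p of 0.0185, so that HTB4 and HTB11 were the 2 of 21 members with an adjusted p in that table that passed 0.05, where 4% of 6995 features passed as lower, 3.06% as higher and 7.06% in all.

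HTB9 (AT3G45980, chromosome 3, 16897287 to 16898013) had 35.5, 41.6 and 43.4 CPM in the mutant libraries and 71.0, 45.9 and 67.4 CPM in the wild-type libraries. Wild-type library 2 came within a few CPM of the mutant. Its log2 fold change was -0.65 ± 0.21 (SE; edgeR adjusted p = 0.12), and -0.27 with the length trend removed. HTB9 overlaps AT3G45970 and AT3G07315 on the opposite strand in RefSeq, and whether counting used strand is not stated. HTB5 (AT2G37470, chromosome 2, 15736764 to 15737368) had 10.8, 10.6 and 9.25 CPM in the mutant and 15.3, 13.1 and 21.2 CPM in the wild type. Its log2 fold change was -0.73 ± 0.22 (SE; edgeR adjusted p = 0.112), and -0.25 with the length trend removed. The groups of HTB1, HTB2 and HTB3 overlapped, with log2 fold changes of -0.28, -0.19 and -0.15, which turned to 0.11, 0.27 and 0.27 with the length trend removed. HTB2 was the most variable H2B gene, at 14.4, 12.5 and 7.02 CPM in the mutant and 23.5, 3.28 and 8.14 CPM in the wild type. In the authors' deposited table HTB2 had a log2 fold change of 0.52 (p = 0.0846), of the opposite sign.

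Added up, the H2B genes reached 192, 196 and 191 CPM in mutant libraries 1, 2 and 3 and 318, 238 and 296 CPM in wild-type libraries 1, 2 and 3. All mutant sums were below all wild-type sums, and they still were with the length trend removed, at 215, 220 and 219 length-corrected CPM in the mutant and 263, 230 and 256 in the wild type. The summed H2A, H4 and H1 levels overlapped between genotypes on both scales. HTB4, HTB9 and HTB11 made up most of the H2B level per kb. HTB11 supplied 19.1%, 16.5% and 20.4% of it in the mutant libraries and 24.2%, 23.0% and 21.7% in the wild-type libraries. HTB3 supplied 8.31%, 9.14% and 9.69% in the mutant and 7.10%, 4.78% and 6.57% in the wild type, whereas the HTB4 and HTB9 shares overlapped. The ratio of summed H2A to summed H2B level per kb was 0.876 ± 0.0426 in the mutant and 0.732 ± 0.041 in the wild type (SD, n = 3 each), with no overlap. These sums and shares rest on the listed members and were not tested.

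**Figure D3:**
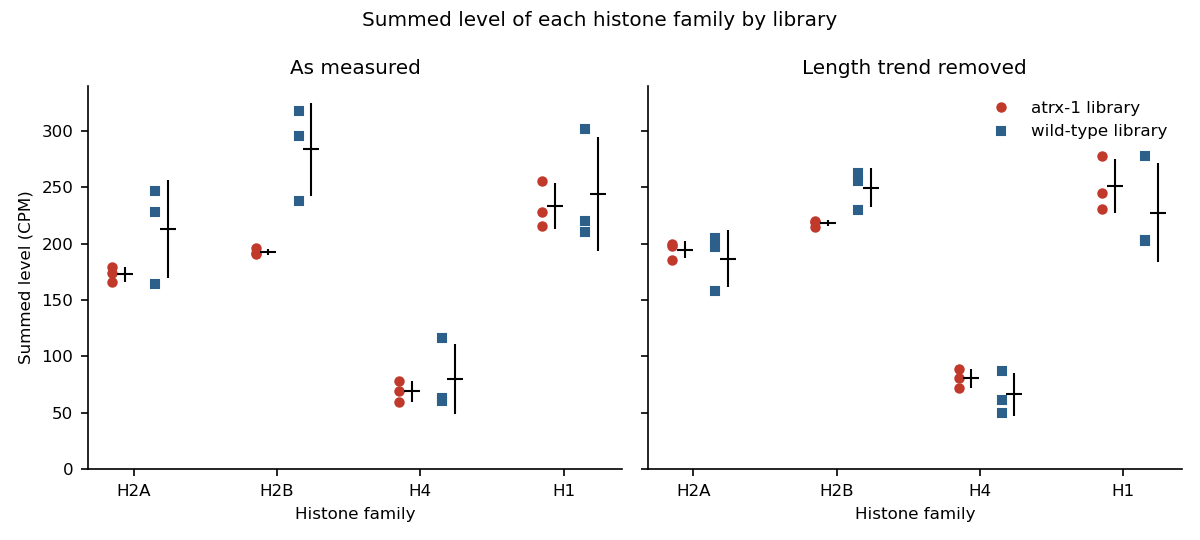
Summed CPM (y axis) of all members of each histone family in each library, as measured on the left and with the length trend removed on the right; circles are mutant and squares wild-type libraries, bars show mean ± SD (n = 3). In both panels the H2B sums of the mutant libraries lie below those of the wild type, while the other families overlap.

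The canonical H2A genes, which package DNA behind the replication fork, had negative log2 fold changes in all 4 tested members, with a median of -0.32. After length correction 2 were lower and 2 higher, with a median of 0.11. HTA10 (AT1G51060, chromosome 1, 18926876 to 18927646), the highest of them, had 19.7, 19.9 and 17.5 CPM in the mutant libraries and 40.6, 25.1 and 28.3 CPM in the wild-type libraries. Wild-type library 1 was the highest by far, and the groups did not overlap. The log2 fold change was -0.75 ± 0.21 (SE; edgeR adjusted p = 0.0898), and -0.32 ± 0.19 (SE; edgeR adjusted p = 0.561) with the length trend removed. HTA2 had no overlap either (log2 fold change -0.43), and the groups of HTA1, known as RAT5 for its role in Agrobacterium transformation, and HTA13 overlapped (-0.22 and -0.15). The mean level of HTA13 was 6.11 ± 1.35 CPM in the mutant and 6.09 ± 2.13 CPM in the wild type (SD, n = 3 each), so that only its fitted value was lower. Without the trend HTA2 was at -0.003, HTA1 at 0.23 and HTA13 at 0.31.

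Both H2A.X genes were lower in the mutant without overlap, as were 11.4% of all features. HTA5 (AT1G08880, chromosome 1, 2846949 to 2847800) had 20.6, 20.7 and 22.6 CPM in the mutant and 39.1, 24.0 and 36.5 CPM in the wild type, a log2 fold change of -0.70 ± 0.20 (SE; edgeR adjusted p = 0.0946). HTA3 (AT1G54690, chromosome 1, 20414316 to 20415287) had 7.21, 5.05 and 7.34 CPM in the mutant and 11.7, 10.9 and 9.77 CPM in the wild type, a log2 fold change of -0.70 ± 0.25 (SE; edgeR adjusted p = 0.151). With the length trend removed these were -0.33 and -0.37, and neither passed. The groups of HTA5 then overlapped, while those of HTA3 did not. HTA3 overlaps 2 genes on the opposite strand in RefSeq. Together H2A.X supplied 15.2%, 15.2% and 16.8% of the H2A level per kb in the mutant libraries and 20.0%, 20.5% and 19.7% in the wild-type libraries, so that the groups did not overlap.

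The H2A.W genes of heterochromatin showed no common direction, and their groups overlapped. HTA7 (AT5G27670, chromosome 5, 9792561 to 9793456), the highest, had 23.9, 22.6 and 22.6 CPM in the mutant libraries and 31.0, 16.4 and 35.2 CPM in the wild-type libraries, so that the mutant lay inside the wild-type range. Its log2 fold change was -0.34 ± 0.23 (SE; edgeR adjusted p = 0.44). HTA6 was at 0.06 ± 0.23 (SE) and HTA12 at 0.41 ± 0.34 (SE). With the length trend removed, all 3 were at or above 0, with a median of 0.44: HTA7 was at 0.006, and HTA6 was at 0.44 ± 0.23 (SE; edgeR adjusted p = 0.526), its mutant libraries above the wild-type libraries. HTA12 then had the largest positive value of the 29 members, 0.82 ± 0.36 (SE; edgeR adjusted p = 0.445), but its counts in wild-type libraries 1, 2 and 3 were only 10, 8 and 14, and it overlaps HTB10. The H2A.W share of H2A level per kb was 22.4% ± 0.789 in the mutant and 19.7% ± 1.99 in the wild type (SD, n = 3 each), with no overlap. The summed H2A.W level itself did overlap. It was 55.9, 49.6 and 50.8 CPM per kb in the mutant libraries and 58.3, 46.3 and 64.9 in the wild-type libraries.

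The H2A.Z genes differed among themselves. HTA9 (AT1G52740, chromosome 1, 19645268 to 19646482) had 52.9, 48.1 and 46.6 CPM in the mutant libraries and 58.7, 33.9 and 51.8 CPM in the wild-type libraries, with a log2 fold change of -0.0049 ± 0.21 (SE; edgeR adjusted p = 0.998). It was at 0.32 ± 0.19 (SE; edgeR adjusted p = 0.576) with the length trend removed, where its mutant libraries lay above the wild-type libraries, as did those of HTA6. HTA9 overlaps AT1G52750 on the opposite strand in RefSeq. HTA11 (AT3G54560, chromosome 3, 20196266 to 20197650) had 7.14, 6.73 and 7.02 CPM in the mutant libraries and 12, 7.65 and 13.7 CPM in the wild-type libraries. Its log2 fold change was -0.76 ± 0.24 (SE; edgeR adjusted p = 0.12), and -0.34 with the length trend removed, where the groups overlapped. H2A.Z made up 32.5%, 32.0% and 29.7% of the H2A level per kb in the mutant and 28.1%, 25.2% and 28.1% in the wild type. The summed H2A.Z level itself overlapped. It was 78.4, 71.4 and 69.7 CPM per kb in the mutant libraries and 94.1, 56.3 and 86.9 in the wild-type libraries.

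**Figure D4:**
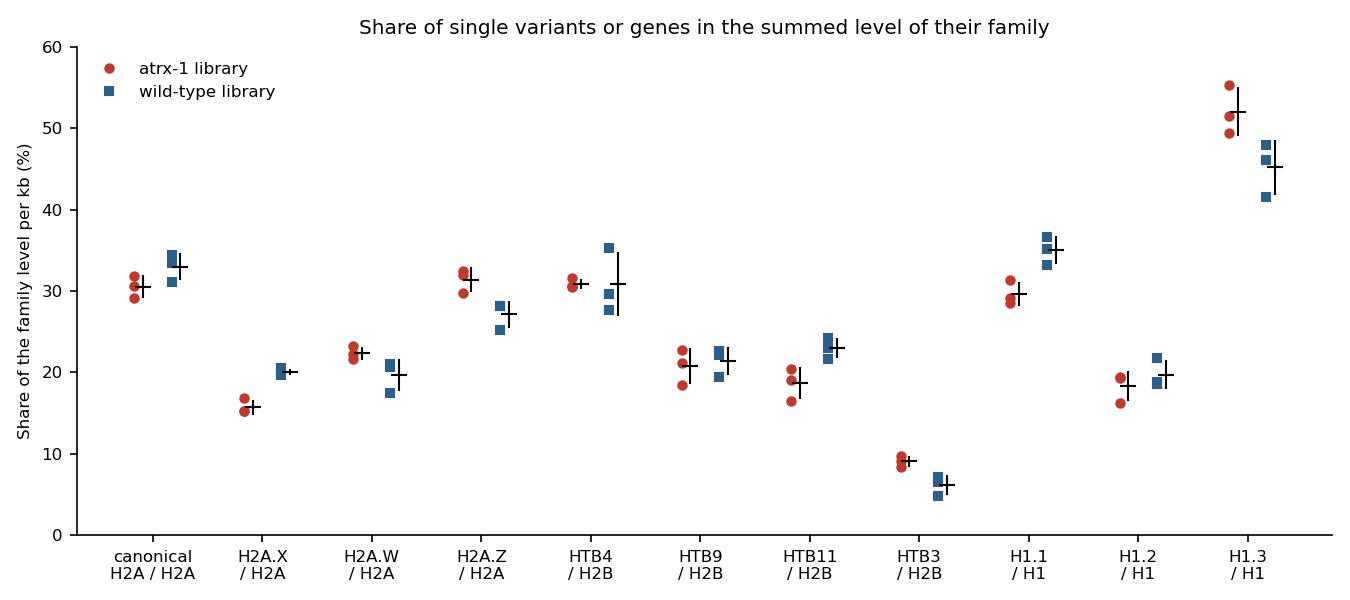
Share (%) of the summed level per kb of a family that came from a variant or gene, for H2A variants, 4 H2B genes and the H1 genes, 1 point per library, mutant circles left of wild-type squares, bars mean ± SD (n = 3). H2A.X, HTB11 and H1.1 shares lie lower in the mutant and H2A.W, H2A.Z, HTB3 and H1.3 shares higher, without overlap.

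H4 genes, all of which encode the same protein, showed no common direction. Of 8 tested, 5 were lower and 3 higher, with a median log2 fold change of -0.06, and 6 of 8 were higher with the length trend removed (median 0.39). AT5G59970 (chromosome 5, 24146175 to 24146726) had 9.40, 10.8 and 13.7 CPM in the mutant libraries and 21.7, 21.9 and 14.3 CPM in the wild-type libraries. Wild-type library 3 nearly touched the mutant range. The log2 fold change was -0.78 ± 0.24 (SE; edgeR adjusted p = 0.115), and -0.25 ± 0.25 (SE; edgeR adjusted p = 0.778) with the length trend removed. AT5G59690 (chromosome 5, 24051552 to 24052143), the highest H4 gene, had 23.0, 24.3 and 17.5 CPM in the mutant and 27.4, 18.6 and 22.5 CPM in the wild type. Its log2 fold change was -0.11 ± 0.21 (SE; edgeR adjusted p = 0.814), and 0.39 ± 0.19 (SE; edgeR adjusted p = 0.481) with the length trend removed.

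The other 6 H4 genes had between 1.59 and 12.1 CPM in the mutant libraries and between 0 and 20.5 CPM in the wild-type libraries. In all 6, wild-type library 1 was the highest wild-type library, and the groups overlapped. AT3G45930, for example, had 97, 23 and 10 reads in the mutant and 27, 1 and 7 in the wild type. The coding sequences of the H4 genes were 78.8% to 98.1% identical to each other, and the closest pair was AT1G07660 and AT1G07820. Of the 50-base stretches in the exons of these 2 genes, 69.2% and 76.3% occur at 1 place in the nuclear genome, so the split of reads between them is uncertain. In AT3G45930 and AT3G46320 the shares were 74.3% and 72.1%. The H2B genes HTB9 and HTB11, 90.1% identical in coding sequence, had 98.1% unique 50-base stretches each, and for 24 of the 35 genes all stretches were unique.

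**Figure D5:**
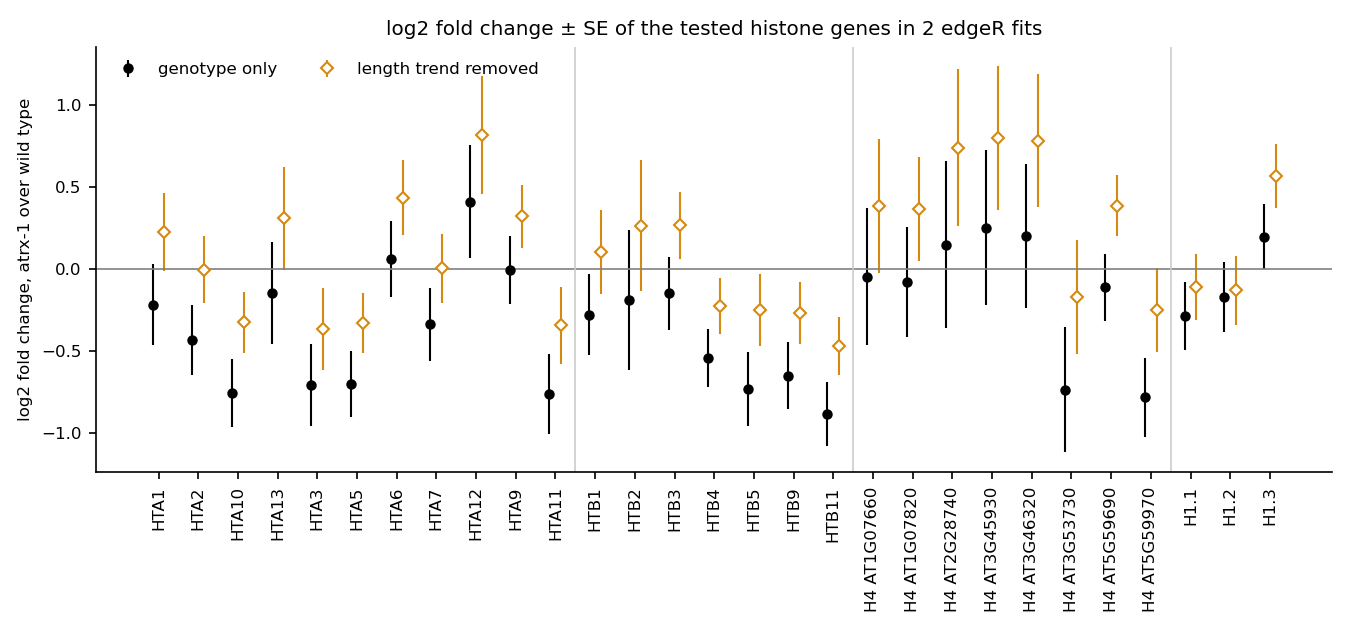
log2 fold change of mutant over wild type with its SE (y axis) for each of the 29 tested histone genes in the edgeR fit with genotype only (black circles) and with the length trend removed (open orange diamonds). The diamonds lie above the circles for every gene, and HTB11 is the lowest in both fits.

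The linker histones were among the most abundant members, and none had an unadjusted p under 0.05 before removal of the length trend. H1.1 (AT1G06760, chromosome 1, 2076504 to 2077698) had 74.5, 75.7 and 84.5 CPM in the mutant libraries and 120, 77.6 and 86.0 CPM in the wild-type libraries, and H1.2 had 64.3, 60.1 and 61.9 CPM in the mutant against 91.8, 56.8 and 58.6 CPM in the wild type. Outside wild-type library 1 the values of both lay in or near the same range in the 2 genotypes. Their log2 fold changes were -0.29 ± 0.21 and -0.17 ± 0.22 (SE; edgeR adjusted p = 0.48 and 0.712), and -0.11 ± 0.20 and -0.13 ± 0.21 (SE) with the length trend removed. H1.3 (AT2G18050, chromosome 2, 7845923 to 7846884), which RefSeq describes as induced by dehydration and abscisic acid, had 88.7, 80.0 and 110 CPM in the mutant and 90.9, 75.4 and 75.6 CPM in the wild type. Its log2 fold change was 0.20 ± 0.20 (SE; edgeR adjusted p = 0.631). With the length trend removed it was 0.57 ± 0.19 (SE; edgeR unadjusted p = 0.0126, adjusted p = 0.337), and the mutant libraries, at up to 126 length-corrected CPM, all lay above the wild-type libraries, at up to 75.0. The share of H1.3 in H1 level per kb was 51.5%, 49.4% and 55.3% in the mutant and 41.5%, 48.0% and 46.1% in the wild type. H1.1 and H1.2 each overlap genes on the opposite strand in RefSeq.

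Several of these genes lie near each other. The closest that do not overlap are HTB3 and the H4 gene AT2G28740, 1536 nt apart on chromosome 2. HTB1 and the H4 gene AT1G07820 are 7298 nt apart on chromosome 1. HTB9 and HTB11 are 15370 nt apart on chromosome 3, with the H4 gene AT3G45930 13277 nt from HTB9. HTA6 and HTB4 are 10656 nt apart on chromosome 5, and the H4 gene AT5G59970 is 17668 nt from HTB4. Some of these neighbours had log2 fold changes of the same sign: HTB9 was at -0.65 and HTB11 at -0.88, and HTB4 was at -0.54 and AT5G59970 at -0.78. HTB1 was at -0.28 and AT1G07820 at -0.08. Others did not, since HTA6 was at 0.06 beside HTB4 and AT3G45930 at 0.25 beside HTB9. HTB3 was at -0.15 and AT2G28740 at 0.15. Negative values were common, at 79.3% of the 29 tested members, and a part of nearness was not tested.

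H3 is the fourth core histone, and ATRX takes part in depositing its variant H3.3. Of 8 H3 genes (5 of H3.1, 3 of H3.3), 6 were lower, against 48.8% of all features, and 2 higher (median log2 fold change -0.17). None of the 8 passed the threshold. With the length trend removed, 2 were lower and 6 higher (median 0.17). HTR13, HTR9 and HTR3 of H3.1 were at -0.59 ± 0.27, -0.34 ± 0.27 and -0.44 ± 0.35 (SE), and HTR5, HTR4 and HTR8 of H3.3 at -0.22 ± 0.19, -0.11 ± 0.19 and 0.09 ± 0.19 (SE). Without the trend these 6 genes were at -0.18, 0.11, -0.12, 0.01, 0.22 and 0.47 in the same order. The genes that carry or exchange H2A and H2B were mostly higher. Of 15 chaperone and remodeler genes, 11 were higher and 4 lower in the mutant (median 0.37), against 48.8% of all features lower. In edgeR 0 passed, with 5 higher and 1 lower at an unadjusted p under 0.05, against 8.64% of all features higher and 10.9% lower. SSRP1, a subunit of the FACT chaperone, had 21.5 ± 1.05 CPM in the mutant and 13.9 ± 1.3 CPM in the wild type (SD, n = 3 each), a log2 fold change of 0.66 ± 0.19 (SE; edgeR adjusted p = 0.0982). INO80 and MBD9, a remodeler ATPase and a methyl-binding-domain protein linked to H2A.Z deposition, were at 0.70 and 0.71. The 15 genes had a median length of 1710 nt, and INO80 and MBD9 were 4947.5 and 6947 nt long. With the length trend removed SSRP1 was at 0.46, INO80 at 0.21 and MBD9 at 0.13, while the list median was 0.13. Of the 15 genes, 10 were then higher and 5 lower, against 51.3% of all features lower. At an edgeR unadjusted p under 0.05, 2 were higher and 1 lower, against 4.44% of features higher and 6.47% lower.

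Genes of DNA replication and the cell cycle, active in the dividing cells that make most histone RNA, gave 5 negative and 8 positive log2 fold changes among 13 tested members (median 0.20), and none had an unadjusted p under 0.05. By mean CPM, 8 of the 13 were lower and 5 higher in the mutant, because the fitted values of MCM2, MCM3 and MCM7 were positive while their mean CPM was slightly lower. The summed level of all 20 listed genes, tested or not, was 78.5 to 93.9 CPM in the mutant libraries and 69.8 to 113 CPM in the wild-type libraries. The groups thus overlapped. PCNA2, the replication clamp, was at -0.51 ± 0.28, the helicase subunit MCM6 at 0.70 ± 0.44, and the mitotic kinase CDKB2;1 at -0.48 ± 0.36 (SE). These were -0.34, 0.44 and -0.41 with the length trend removed, when 9 of the 13 were lower (median -0.08). Their part in the histone values was not tested.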

How the data were processed

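RNA-seq counts of 6 libraries, 3 atrx-1 and 3 wild type, were grouped by sample title. The members and gene lists were chosen with earlier results of these data known. Per the file headers, the authors deposited raw read counts per gene, a normalized signal (count over 1 size factor per library) and that signal per kb of gene length, from which gene length was derived. The authors also deposited a log2 fold change with its p-value, raw and adjusted, and these were used unchanged. The submitters' processing notes name DESeq, DESeq2 1.6.3, HTSeq 0.6.1, TopHat2 2.0.14 with Bowtie2 2.1.0, CASAVA 1.8.2 and the build TAIR10, with roles, annotation version, strand and the handling of multiply matching reads not stated there. Every row named a gene, 0 per-sample columns were unmapped, and no 2 libraries were copies (mean chi-square per gene at least 3.05, where sampling noise gives 1).

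edgeR 4.0.16 in R 4.3.3 was run on all 23640 features with TMM, filterByExpr (minimum count 10, total 15), glmQLFit and glmQLFTest, a genotype term alone, and Benjamini-Hochberg adjustment over 13819 tested features at 0.05, after tests on simulated data. SE is the log2 fold change over the root of the F statistic. In the length-corrected fit each library's lowess trend (span 0.3) on log2 length over nuclear genes became an offset. The trend was that of log2 CPM relative to each gene's mean over all libraries. CPM of untested members stayed uncorrected. Named members had an unadjusted p under 0.05, or the highest level per kb or smallest p of their variant, and members with a mean count under 10 are given by counts. From related lists the 3 members with the smallest p are named. HTA1, HTA2, HTA6, HTA12, HTA13, HTB1, HTB2, HTB3, H1.2, the H4 genes AT3G45930, AT1G07660, AT1G07820, AT2G28740 and AT3G46320, and the sequences shown were chosen after their values were seen.

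Promoters, exons and overlaps come from RefSeq TAIR10.1, using the transcript with the longest coding sequence and, among equals, the shortest 5′ part. The RefSeq coding span lay inside the interval of the table for 96.2% of 22110 nuclear protein-coding genes, and 10.2% had the same start and end, so gene coordinates are those of the table (TAIR10) and window coordinates those of TAIR10.1. Counts carry no molecular identifiers, and depth limits the low genes.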

Additional observations from a re-analysis of the deposited data

How the results depend on the processing

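The 16 features called over the whole table became 210 with DESeq2, 38 with RLE size factors, 592 with no filter, 34 with the replicate block, 0 with the length trend removed (1508 at an unadjusted p under 0.05), 1 with the replicate block and length trend removed, and 0 with a straight-line trend, an alternative chosen after seeing the data. Leaving out 1 library gave 0 to 378 calls, and 0 to 20 with the length trend removed as well. Members called were 1 (HTB11) with DESeq2, with no filter and without wild-type library 1, and 0 under the other settings. The median log2 fold change of the members, -0.22, was 0.11 with the length trend removed, 0.083 with the replicate block and length trend removed and 0.071 with the straight line. Leaving out 1 library gave -0.36 to -0.0066, the last without wild-type library 1, and 0.00016 to 0.15 with the length trend removed (0.0373, 0.0405 and 0.0857 without mutant library 1, 2 or 3 and 0.0506 without wild-type library 2).

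Among the values of named members under alternatives, 34 changed sign, 3 of HTB11 passed the threshold and 257 did neither. HTA9 (-0.0049) was 3.71e-05 with DESeq2, 0.033 with no filter and 0.032 with the replicate block. It was 0.32 with the length trend removed, 0.35 with the replicate block and length trend removed and 0.30 with the straight line. Without single libraries HTA9 lay between -0.19 and 0.137, the last without wild-type library 1. With the length trend removed as well it lay between 0.175 and 0.44 (0.269 when mutant library 1 was left out). HTA7 was 0.0056 with the length trend removed and 0.068 with the replicate block and length trend removed. Without single libraries HTA7 lay between -0.54 and -0.17. With the length trend removed as well it lay between -0.17 and 0.17 (0.0405 and 0.0211 without mutant library 2 or 3). The H4 gene AT5G59690 was 0.39, 0.36 and 0.34 under the 3 length settings in the same order. Without single libraries it lay between -0.22 and 0.0435, the last without wild-type library 1. With the length trend removed as well it lay between 0.32 and 0.49 (0.464 without wild-type library 1). Without single libraries H1.1 lay between -0.42 and -0.075, and between -0.24 and 0.097 with the length trend removed as well. HTB5 lay between -0.85 and -0.51 without single libraries, and between -0.44 and 0.00016 with the length trend removed as well. The causes were not tested.

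Replicate numbers gave no sign of a pairing, though 3 libraries per group cannot settle it. Deviations from the group means of same-numbered libraries correlated at 0.0647, 0.0654 and -0.0864, and mutant library 2 correlated best with wild-type library 3 (0.0955). The block changed no call among the members (0 called, HTB11 edgeR adjusted p = 0.0988), while calls over the whole table went from 16 to 34. Depth limited the 5 untested members and 6 of the H4 genes, which had 0 to 7 reads in wild-type library 2.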
